A study of Mus musculus with 384 samples.

Results

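The Hox cluster genes were examined in single cells of 2 formative stem (FS) cell lines and 2 epiblast stem cell (EpiSC) lines of the mouse. FS cells are pluripotent cells held at a stage between naive embryonic stem cells and the primed EpiSCs. Members were the genes with a protein-coding record in GENCODE M21 whose symbol is Hox, a cluster letter from a to d and a position number. That rule gives 39 genes, of which 17 have a row among the 31617 rows of the raw count table. The other 22 were not analysed here, and 16 of the 17 are described and enter every sum and count below. The 16 are Hoxa2, Hoxa7 and Hoxa11, then Hoxb1, Hoxb2, Hoxb3, Hoxb7 and Hoxb13, then Hoxc4, Hoxc5, Hoxc6 and Hoxc9, and Hoxd1, Hoxd4, Hoxd11 and Hoxd13. The FS lines 5ar1 and 5ar2 were cultured in AloXR, which holds activin A at 3 ng/ml, XAV939 (a blocker of tankyrase) at 2 μM and BMS493, an inverse agonist of retinoic acid receptors, at 1.0 μM. The EpiSC line AFX6 was kept in AFX, with 20 ng/ml activin A, Fgf2 and 2 μM XAV939. The EpiSC line AF32 was kept in AF, with 20 ng/ml activin A and Fgf2 but no XAV939. All media share the N2B27 base and activin, and BMS493 is only in the FS medium, so its part cannot be told apart from the other differences between FS cells and EpiSCs. Each EpiSC medium has 1 line, so medium and line cannot be told apart either. Embryos of CD1 and 129aa mice gave the study's cell lines, and the strain behind each line is not given in the sources used here.

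Hox genes encode homeodomain transcription factors that give cells their place along the head-to-tail axis. They lie in clusters, one on each of 4 chromosomes, and members with the same number in different clusters are paralogues. In the embryo they switch on in order, from the low-numbered 3′ end of a cluster, whose genes act in the hindbrain, to the high-numbered 5′ end, whose genes act in the tail and limbs. Retinoic acid, Wnt and Fgf signals start this order at the primitive streak, and retinoic acid acts mainly on the low-numbered genes. In pluripotent cells the clusters are known as targets of Polycomb repression. The Hoxa cluster lies on chromosome 6. On GRCm38 the Hoxb cluster spans chr11:96194316-96368256, the Hoxc cluster chr15:102921103-103036852 and the Hoxd cluster chr2:74668310-74765142.

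The sequences just before the start sites are shown for Hoxb1, Hoxa2 and Cyp26a1. Hoxb1 and Hoxa2 were the most abundant members with an entry in the RefSeq promoter table in AF32 and in AFX6. Cyp26a1, the retinoic acid-degrading enzyme, appeared beside Hoxb1 in AF32 cell 35. It had no counts in the cells that gave most Hoxa2 counts. Each sequence is 240 bases long, reads 5′ to 3′ on the gene's strand and comes from RefSeq on GRCm38.p6. Hoxb1 is taken from chr11:96365508-96365747 (plus strand), Hoxa2 from chr6:52164842-52165081 (minus strand) and Cyp26a1 from chr19:37697558-37697797 (plus strand). Capitals mark, in the Hox genes, a match to TGATNNAT, the joint motif of Pbx and Hox proteins, on either strand. In Cyp26a1 they mark a direct repeat of retinoid receptor hexamers with 5 bases between them (DR5), on either strand.
Hoxb1: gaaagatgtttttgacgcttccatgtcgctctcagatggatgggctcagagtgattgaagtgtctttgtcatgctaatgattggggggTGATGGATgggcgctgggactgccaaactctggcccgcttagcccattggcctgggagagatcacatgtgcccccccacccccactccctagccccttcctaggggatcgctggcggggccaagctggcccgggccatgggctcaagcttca
Hoxa2: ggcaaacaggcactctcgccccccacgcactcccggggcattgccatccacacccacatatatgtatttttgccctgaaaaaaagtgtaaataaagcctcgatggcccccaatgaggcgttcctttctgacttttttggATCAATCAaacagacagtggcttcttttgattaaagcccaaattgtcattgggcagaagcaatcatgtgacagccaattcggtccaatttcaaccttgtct
Cyp26a1: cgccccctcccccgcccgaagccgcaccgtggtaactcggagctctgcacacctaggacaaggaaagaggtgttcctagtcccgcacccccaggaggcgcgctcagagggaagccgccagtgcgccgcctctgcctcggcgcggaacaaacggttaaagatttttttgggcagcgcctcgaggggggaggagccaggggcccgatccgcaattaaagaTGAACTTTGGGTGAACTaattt

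The match begins at position -162 in Hoxb1, -111 in Hoxa2 and -32 in Cyp26a1, counted from the base before the start site as -1. The motif TGATNNAT occurs in 8.85% of the 32851 windows of the table, each from 250 bases before to 50 bases after a start. It occurs in 4 of the 24 windows of 22 Hox genes, namely those of Hoxa2, Hoxb1, Hoxb8 and Hoxd11. The Meis and Pknox motif TGACAG occurs in 19.2% of all windows and in 2 of the Hox windows, of Hoxa2 and Hoxa3. The retinoid receptor hexamer AGGTCA was searched on both strands with its variant AGTTCA, the variant GGGTCA and also the variant GGTTCA, and a direct repeat contains a pair of such hexamers. At least 1 hexamer occurs in 43.7% of all windows and in 11 of the 24 Hox windows. Direct repeats with 5 bases between hexamers occur in 0.0974% of all windows and those with 2 bases in 0.268%, and 0 of the 24 Hox windows hold either. These matches describe letters in short windows and say nothing of binding. Of the 16 genes described, 9 have a window.

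Libraries were made with Smart-seq2, which copies full-length RNA of sorted single cells without molecular identifiers and does not mark the strand. The threshold of 3000000 counts per cell, which the study also used, kept 326 of 384 cells: 90 of each FS line, 66 of AFX6 and 80 of AF32. Kept cells held 3022666 to 6686007 counts, and the lines summed to between 332621205 and 434858507 counts. At that depth the floor of 3 counts, about the one-sided 95% upper limit for a count of 0, corresponds to 0.0069 to 0.00902 CPM (counts per 1000000 counts) of a line. Pou5f1, which marks pluripotent cells, had 490.0 to 644.0 CPM in the 4 lines, so the cells carry the marker their labels call for. Intervals below cover counting error only, and cells of a line share a culture and are not replicates of a medium. Those on summed counts treat every read as independent. Without molecular identifiers, copies of the same molecule cannot be told apart, so these intervals may be too narrow.

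Hox transcripts were scarce in every line and were found in few cells. No member reached 1 CPM in the summed counts of 5ar1 or 5ar2, whereas Hoxa2 and Hoxc6 did in AFX6 and Hoxb1 did in AF32. Among 17174 protein-coding genes, 69.1% to 70.4% reached 1 CPM in a line. At least 1 Hox gene was present at 5 CPM or more in 1 of 90 cells of 5ar1 (1.1%, exact Clopper-Pearson 95% interval 0.0281 to 6.04%). The same held for 3 of 90 cells of 5ar2 (3.33%, 0.693 to 9.43%) and 4 of 66 cells of AFX6 (6.06%, 1.7 to 14.8%). In AF32 it held for 12 of 80 cells (15.0%, 8.0 to 24.7%), and at 1 CPM for 13 cells (16.2%, 8.95 to 26.2%). The interval of AF32 overlapped those of AFX6 and 5ar2 but not that of 5ar1, and the intervals of AFX6, 5ar1 and 5ar2 overlapped each other. The summed level of the 16 genes was 3.99 CPM in AF32 (exact Poisson 95% interval 3.79 to 4.2) and 3.16 CPM in AFX6 (2.97 to 3.36), against 0.497 CPM in 5ar1 (0.432 to 0.568) and 0.34 CPM in 5ar2 (0.288 to 0.4). Without the top cell of each gene the sums were 1.3 CPM in AF32, 0.76 in AFX6, 0.00234 in 5ar1 and 0.0 in 5ar2, so a few cells carried most reads in each line. Both EpiSC lines stayed above both FS lines in every setting tried, but with cells of at least 4000000 counts AF32, at 2.98 CPM, lay below AFX6, at 3.48 CPM. Some settings could hardly give another order. The authors' normalized values cover only Hoxa2, Hoxb1, Hoxb2 and Hoxb3, which had at most 1 count in either FS line. Leaving out genes that share over 30% of exon bases removes Hoxa11, the only member with counts in 5ar1.

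**Figure D1:**
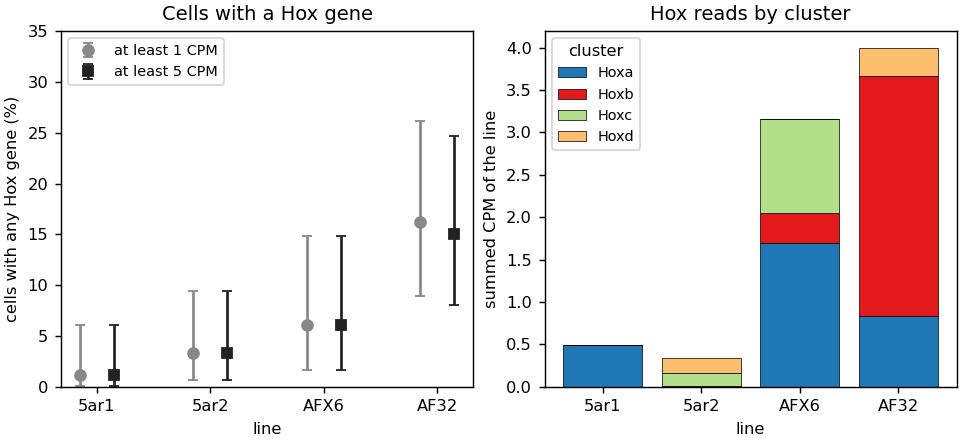
Left, the percentage of cells of each line with any Hox gene at 1 CPM or more (grey circles) or 5 CPM or more (black squares), with exact 95% intervals as bars. Right, summed CPM of the 16 Hox genes in each line, stacked by cluster. AF32 has the highest share and sum, 15.0% at 5 CPM and 3.99 CPM, and Hoxc genes appear in AFX6 and 5ar2 only.

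Most counts of a Hox gene in a cell were either above 10 or no more than 2. Kept cells gave 42 pairs of a gene and a cell with any count. Of these, 15 pairs had 1 or 2 counts, 2 had 3 to 10 and 25 had more than 10. All 25 pairs above 10 counts lay at 5 CPM or more, with a lowest value of 5.46, a median of 18.7 and a highest value of 58.3 CPM. They fell in 20 cells, of which 16 had a single Hox gene at that level. Cells with a Hox gene at 1 CPM or more held 3111312 to 6257282 counts, within the range of all kept cells, and 9789 to 11836 detected genes. Other genes of a like summed level were set beside them. In AF32, 2008 protein-coding genes lay between 0.2 and 2 CPM in the line sum. Their median number of cells at 5 CPM or more was 2, and their median share of counts from the top cell was 63.2%. The 7 Hox genes in that band had 1 to 5 such cells.

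**Figure D2:**
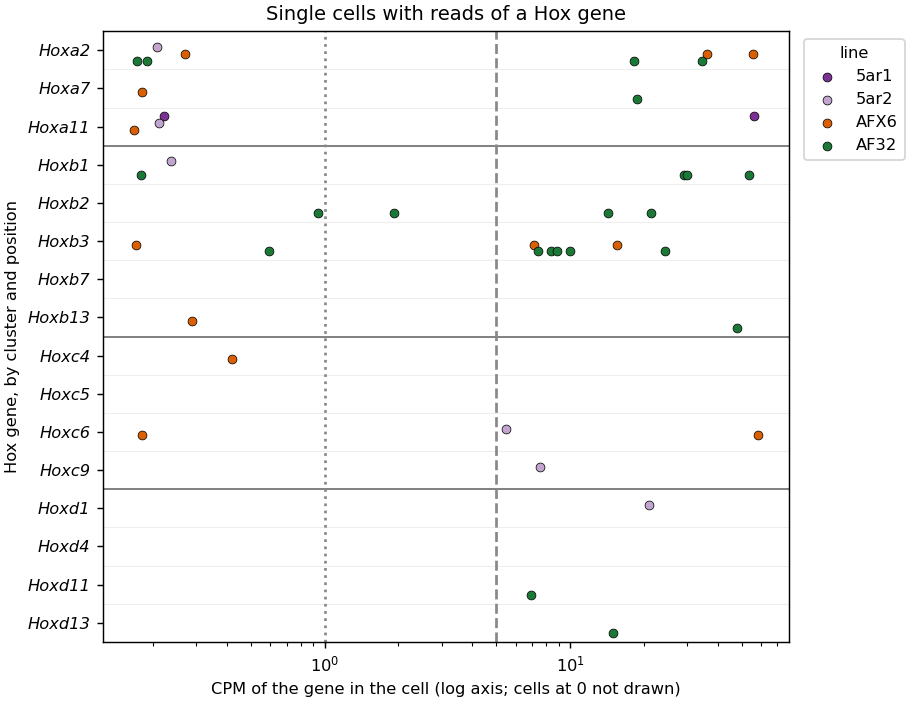
CPM of each of the 16 Hox genes in every kept cell with at least 1 count (log axis), by gene in cluster order and coloured by line. The dotted and dashed lines mark 1 and 5 CPM. Most points form a low group of 1 or 2 counts or a group at 5.46 to 58.3 CPM, and the 2 points between them are Hoxb2 in AF32 cells, at 0.942 and 1.9 CPM.

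Among the 16 described members, the 5 at positions 1 to 3 made up most Hox counts of both EpiSC lines. The shares hold for the described members only, because 22 Hox genes were not analysed. Members at positions 1 to 3 held 74.2% of the Hox counts of AF32 and 64.7% of those of AFX6. The 6 members at positions 4 to 8 held 6.06% and 35.1%, the latter nearly all from Hoxc6, and the 5 members at positions 9 to 13 held 19.8% and 0.19%. At 5 CPM or more, 9 cells of AF32 had a gene of positions 1 to 3, 1 cell had a gene of positions 4 to 8 and 3 cells had a gene of positions 9 to 13. In AFX6 the numbers of cells were 4, 1 and 0. In 5ar1 the only such cell had a gene of positions 9 to 13, and in 5ar2 each class had 1 cell.

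Position 1 genes pattern the hindbrain and are among the earliest to be induced by retinoic acid. Hoxb1 (chr11:96365752-96368256, plus strand) had 442 counts in AF32, 0 in AFX6 and, in the FS lines, 0 (5ar1) and 1 (5ar2), or 1.2 CPM (1.1 to 1.4) in AF32. It was present in AF32 cells 5, 35 and 48, at 29.2, 30.1 and 53.4 CPM. Per kilobase of exon its level in AF32 was 0.535 CPM, the highest of the 16 members there. Hoxd1, also at position 1, gave 79 counts in 1 cell of 5ar2 and 0 in the kept cells of the other lines.

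Position 2 and 3 genes followed, and Hoxa2 and Hoxb3 were the only members with more than 3 counts in both EpiSC lines. Hoxa2 (chr6:52162417-52164831, minus strand), which gives the second pharyngeal arch its identity, had 561 counts in AFX6, 212 in AF32 and, in the FS lines, 0 (5ar1) and 1 (5ar2). Its level was 1.7 CPM (1.6 to 1.8) in AFX6 and 0.596 CPM (0.518 to 0.682) in AF32. Without the top cell of each line these levels were 0.656 and 0.168 CPM. The AFX6 reads came from cells 70 and 13, at 55.5 and 36.3 CPM, and those of AF32 from cells 19 and 59, at 34.4 and 18.3 CPM. Hoxb3 (chr11:96323326-96347930, plus strand) had 0 counts in both FS lines, 120 in AFX6 and 230 in AF32, or 0.361 CPM (0.299 to 0.431) and 0.646 CPM (0.566 to 0.736). It reached 5 CPM in 2 of 66 AFX6 cells and in 5 of 80 AF32 cells, the most cells of any member, with a highest value of 24.4 CPM in AF32 cell 35. Of its exon bases 52.9% also belong to the antisense gene Hoxb3os, so reads there cannot be assigned to one strand. Hoxb3os itself had 0.166 CPM in AF32 and 0.0 in the other lines. Hoxb2 gave 169 counts, all in AF32, and reached 5 CPM in 2 cells.

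Central and posterior members appeared in isolated cells. Hoxc6 (chr15:102998257-103011881, plus strand), a gene of the thoracic region, had 366 counts in AFX6, 0 in AF32 and, in the FS lines, 0 (5ar1) and 29 (5ar2). AFX6 cell 70 alone gave 99.7% of the AFX6 counts, at 58.3 CPM, and the same cell had the highest Hoxa2. The 29 counts of 5ar2 came from 1 cell at 5.46 CPM. The remaining members with more than 3 counts in a line had them in 1 cell at 5 CPM or more, and were named after their values were seen. In AF32 these were Hoxa7 (18.7 CPM in cell 2), Hoxb13 (48.1 CPM in cell 11), Hoxd11 (7.0 CPM in cell 19) and Hoxd13 (15.0 CPM in cell 72). In 5ar1 it was Hoxa11 (56.0 CPM in cell 41), and in 5ar2 Hoxc9 (7.56 CPM in cell 19) and Hoxd1 (21.0 CPM in cell 16). Hoxc4 had 2 counts in 1 AFX6 cell, and Hoxb7, Hoxc5 and Hoxd4 had 0 counts in every kept cell. Cell 41 of 5ar1, with Hoxa11, had 3.68 CPM of Pou5f1, against a line median of 630.0. Of the exon bases of Hoxa11, 35.0% are shared with the antisense gene Hoxa11os.

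Few cells had more than 1 Hox gene, and some AF32 cells with a Hox gene also held other early patterning genes. At 5 CPM or more, 3 of 80 AF32 cells had at least 2 members and 1 of them had 3. AF32 cell 35 had Hoxb1, Hoxb2 and Hoxb3, neighbours in the Hoxb cluster, at 30.1, 14.3 and 24.4 CPM. AF32 cell 59 had Hoxa2 and Hoxb3, and cell 19 had Hoxa2 and Hoxd11. Cell 35 and cell 92, which had Hoxb2 at 21.3 CPM, also held the 2 highest values of Cyp26a1, at 306.0 and 329.0 CPM. Of 6 AF32 cells with at least 5 CPM of Cyp26a1, these 2 had a Hox gene at that level, and the other 4, at 78.1 to 134.0 CPM, did not. The same cells stood apart for Meis2, a homeodomain partner of Hox proteins, with 240.0 and 314.0 CPM against a median of 0.0 in AF32. Their Pou5f1 was low, 129.0 and 68.6 CPM, which ranks 5 and 4 from the lowest of 80 AF32 cells. Their Fgf8, a signal of the streak and of brain organizers, ranked 4 and 1 from the highest. Cell 92 had the highest Sox1, an early neural gene, of all AF32 cells, with 122.0 CPM.

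Among AF32 cells, Egr2 and Olig3 were found in part in the cells with a Hox gene, and both were singled out with their values in view. Egr2, which forms rhombomeres of the hindbrain and is known to act on Hoxa2 and Hoxb2, reached 5 CPM in 3 of 80 cells, and all 3 had a Hox gene at that level. These were cells 5 and 35, with 83.1 and 26.4 CPM of Egr2 and with Hoxb1, and cell 90, with 167.0 CPM of Egr2 and with Hoxb3. Cell 35 also had Hoxb2, but cells 5 and 90 had neither Hoxa2 nor Hoxb2. Cells 19 and 59, with Hoxa2, and cell 92, with Hoxb2, had 0.0 CPM of Egr2. In 5ar1 and 5ar2 Egr2 reached 5 CPM in 1 and 2 cells, of which 0 had a Hox gene. Olig3, a factor of the dorsal hindbrain and spinal cord, reached 5 CPM in 8 cells, of which 5 were among the 12 with a Hox gene. Sox1 did so in 16 cells, of which 6 were among the 12, and Meis2 in 17 cells, of which 5 were. Of the other neural list genes, Tubb3 reached 5 CPM in 33 cells, of which 4 were among the 12. Map2 did so in 8 cells (2 among the 12), Pax6 in 2 (1), Nkx1-2 in 2 (0) and Pax3 in 1 (0). T, the primitive streak gene, reached 5 CPM in 2 AF32 cells, of which 0 had a Hox gene, and Foxa2 in 13 cells, of which 0 had one. All 12 cells with a Hox gene had Pou5f1 and Nanog at 5 CPM or more, as had 78 and 76 of all 80 AF32 cells. These counts are few, come from 1 line and were not tested.

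**Figure D3:**
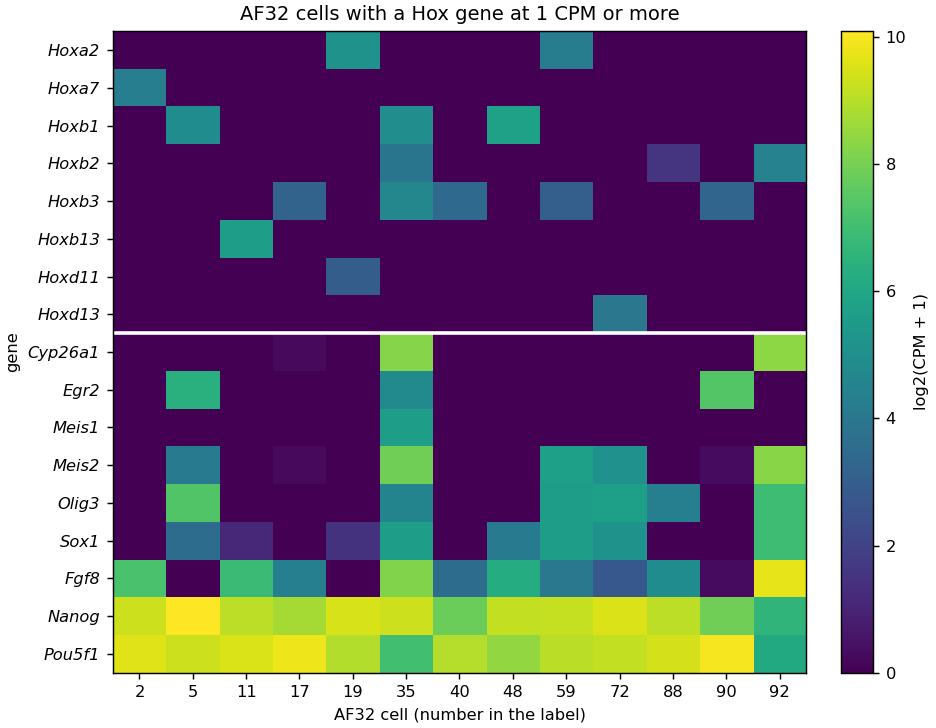
Heat map of log2(CPM + 1) in the 13 AF32 cells with a Hox gene at 1 CPM or more, numbered as in the labels, with Hox genes above the white line and other genes below it. Cells 35 and 92 combine Hox genes with Cyp26a1 at 306.0 and 329.0 CPM and low Pou5f1, and most cells show a single Hox gene with Pou5f1 and Nanog present.

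Marker lists of other cell types ranked the lines differently from the Hox sum. AF32 had the highest streak and endoderm sums, whereas AFX6, second in Hox level, had the lowest sum of all 4 lists. The primitive streak and mesoderm list of 9 genes summed to 68.3, 59.0, 15.7 and 122.0 CPM in 5ar1, 5ar2, AFX6 and AF32, and 2, 3, 2 and 6 of its genes reached 1 CPM. The neural list of 8 genes summed to 350.0, 138.0, 21.5 and 94.9 CPM, with 4, 4, 3 and 5 genes at 1 CPM, and most of the FS sums came from Tubb3. The 5 measured endoderm genes summed to 0.963, 2.6, 0.00902 and 9.24 CPM, and Sox17 and Gata4 were at 0.0 in both EpiSC lines. The 5 measured extraembryonic genes summed to 43.5, 22.1, 6.7 and 8.77 CPM. The part of such cells in the Hox levels was not tested.

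The comparison of FS cells with EpiSCs asked whether Hox genes differ between the states, with lines as replicates, 2 against 2. Hoxa2 and Hoxb3 were lower in both FS lines than in both EpiSC lines, as were 21.5% of all genes tested, and edgeR did not call them. Both passed the filter on low counts only through their EpiSC counts, so their direction among the members tested was fixed by the filter. Summed over lines, Hoxb3 was 147.0-fold higher in EpiSCs, with the FS lines, at 0 counts, set at the floor of 3 counts over the group. Hoxa2 had 773 counts in EpiSCs and 1 in FS cells, a ratio of 972.0 (exact conditional 95% interval 174.0 to 38445.0). The edgeR quasi-likelihood test called 0 of 22606 genes (0.0%) with an adjusted p under 0.05 and a log2 change beyond 1.4 either way, and 0 of the 3 Hox genes that passed the filter on low counts. At an unadjusted p under 0.05 it gave 3636 genes (16.1%), among them Hoxa2 (edgeR p = 0.00523, adjusted p = 0.19) and Hoxb3 (edgeR p = 0.00533, adjusted p = 0.19). The third, Hoxc6, had an adjusted p of 0.7 in edgeR, and its fold turned over without AFX6. DESeq2 called 1454 genes, of which 737 were lower in FS cells (3.26% of genes tested), and among these were Hoxa2 (DESeq2 adjusted p = 3.38e-05) and Hoxb3 (DESeq2 adjusted p = 0.00182). The 13 members that did not pass the filter had no test, and the counts of Hoxa11, Hoxc9 and Hoxd1 were higher in FS cells.

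The 2 EpiSC lines differ by XAV939, which blocks canonical Wnt signalling, and by line, and were compared by folds with exact conditional 95% intervals and no test. Of 9 members with more than 3 counts in either line, 7 were higher in AF32. Hoxb1 was 138.0-fold and Hoxb2 52.7-fold higher in AF32, with AFX6, at 0 counts, set at the floor of 3 counts in the line. Without the top cell the folds were 64.1 and 19.9, and after thinning cells to 1000000 counts 28.3 and 11.5. Hoxb13 was 154.0-fold higher in AF32 (27.3 to 6129.0), on 165 counts, all from 1 cell, against 1 count. Hoxb3 was 1.8-fold higher in AF32 (1.4 to 2.2), the smallest of these folds, and it was the only one to turn over when cells were restricted to at least 4000000 counts, at 0.764. Under that restriction Hoxb13 had no fold, because its AF32 cell of 3427100 counts was left out, and 5 members were higher in AF32. Hoxa2 and Hoxc6 went the other way, with Hoxa2 2.8-fold (2.4 to 3.3) and Hoxc6 130.0-fold higher in AFX6. For Hoxc6, AF32 was set at the floor of 3 counts, and AFX6 cell 70 gave 99.7% of its AFX6 counts. Without the top cell of each gene and line, 3 members were higher in AF32, Hoxa2 was still lower, and 5 members were left with no more than 3 counts in either line. Chromosomes were compared by the mean of their genes in a cell. For chromosome 11, which holds the Hoxb cluster, it was over 1.2 times the cell's median autosome in 66 of 80 AF32 cells and in 9 of 66 AFX6 cells. Of the 9 AF32 cells with a Hoxb gene at 5 CPM or more, 8 were among the 66. For chromosome 2, which holds the Hoxd cluster, the ratio was over 1.2 in 29 of 80 AF32 cells and in 2 of 66 AFX6 cells, and 1 of the 2 AF32 cells with a Hoxd gene was among the 29. The part of either chromosome in the folds was not tested.

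The described Hox genes were at low levels, whereas most measured neighbours of the clusters were expressed. Of 24 protein-coding genes next to the cluster ends, 3 at each end, 23 were measured, and 18 to 19 of them reached 10 CPM in each line. Per kilobase of exon, the median of these neighbours was 8.13 to 14.6 CPM in the lines, and the highest Hox gene had 0.0976 to 0.95 CPM. By that measure 19 to 21 of the 23 neighbours lay above the highest Hox gene of the same line. Cbx5, next to the Hoxc cluster at 155.0 kb, had 242.0, 327.0, 205.0 and 195.0 CPM in 5ar1, 5ar2, AFX6 and AF32. Mtx2, 60.7 kb from the Hoxd cluster, had 132.0, 144.0, 106.0 and 126.0 CPM, and Skap2, 143.0 kb from the Hoxa cluster, had 17.0, 18.0, 50.8 and 32 CPM. These 3 were picked as examples with their values in view. The exceptions were Evx2, a homeobox gene 8.75 kb from the Hoxd cluster, with 0.0 CPM in every line, and Calcoco2, Ttll6 and Skap1 around the Hoxb cluster, at 0.0 to 1.8 CPM. Atf7, next to the Hoxc cluster, had 5.46 CPM in 5ar1 and 10.4 to 15.3 CPM elsewhere. Within the clusters, 14 other genes had a row. Of these, 1 reached 1 CPM, the processed pseudogene Gm11539 in the Hoxb cluster, with 7.73, 9.43, 10.9 and 6.3 CPM in 5ar1, 5ar2, AFX6 and AF32, and as a copy of another gene it may share reads with it, so its level is uncertain. Noncoding genes of the clusters were at low levels, Hotairm1 of the Hoxa cluster at 0.307 CPM in AFX6 and 0.41 in AF32 against 0.0418 and 0.0483 in 5ar1 and 5ar2. Hotair and Mir615 of the Hoxc cluster were at 0.0 in all lines.

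**Figure D4:**
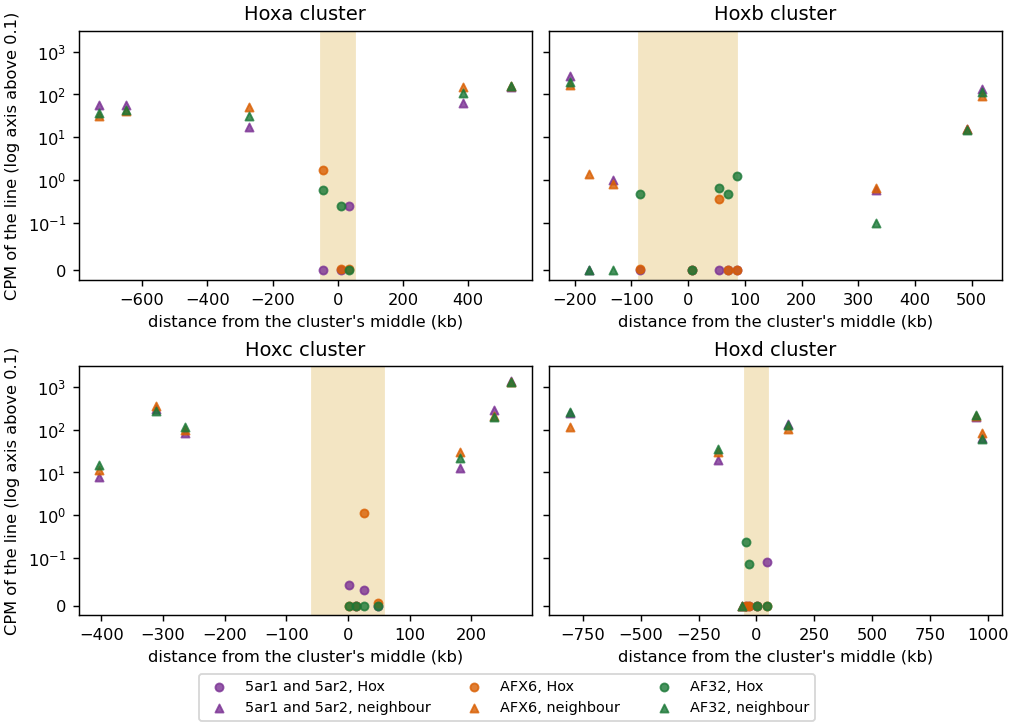
CPM in the summed counts of the 2 FS lines together, AFX6 and AF32 for measured Hox genes (circles) and the protein-coding neighbours (triangles), against the distance of the gene's middle from the cluster's middle in kb (y axis linear below 0.1, logarithmic above). Shading marks the span of each cluster. Hox genes lie at or below 1.7 CPM, and most neighbours lie above 10 CPM.

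Most genes whose products act together with Hox proteins reached 1 CPM in each line, as did 69.1% to 70.4% of all protein-coding genes. TALE homeodomain proteins bind DNA together with Hox proteins. All 9 list genes, of the Pbx, Meis and Pknox families, were measured, and 8, 7, 8 and 9 of them reached 1 CPM in 5ar1, 5ar2, AFX6 and AF32. Meis2 had 2.7, 0.676, 2.4 and 18.0 CPM, and Meis3 had 27.6, 33.7, 10.4 and 46.7 CPM. Pknox2 had 5.56, 12.1, 3.9 and 26.2 CPM. These 3 genes were named for their range between lines, and all 3 were highest in AF32. The list as a whole was mixed. Pbx2 and Meis1 were also highest in AF32, but Pbx3 and Pbx4 in AFX6 (51.9 and 41.8 CPM) and Pknox1 in 5ar1 (22.9 CPM). The list of 9 gave 0 calls in edgeR, with 0 genes higher and 1 lower in FS cells at an unadjusted p under 0.05 (9.06% and 7.02% over all genes tested), and a median log2 fold change of -0.76 against -0.01 over all genes. DESeq2 called 1 of the 9, Pbx4, lower in FS cells, against 3.26% of all genes.

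Retinoic acid genes set the signal to which the anterior Hox genes respond. Of 21 list genes 20 were measured, and 13, 13, 13 and 14 reached 1 CPM in 5ar1, 5ar2, AFX6 and AF32. Cyp26a1 had 0.276, 0.0023, 0.012 and 13.0 CPM, with 6 of 80 AF32 cells at 5 CPM or more. Dhrs3, a retinaldehyde reductase and a known retinoic acid target, had 6.7, 2.2, 39.4 and 28.9 CPM. Crabp1 and Crabp2, which bind retinoic acid in the cytoplasm, went the other way, with 14.7, 22.5, 8.86 and 3.15 CPM for Crabp1 and 47.6, 36.1, 9.67 and 9.21 CPM for Crabp2. Rxrg, a partner receptor, had 12.5, 14.0, 1.2 and 14.3 CPM. Stra6, the retinol uptake receptor, had 6.6, 17.2, 2.0 and 5.16 CPM. Nrip1, a nuclear receptor corepressor, had 15.4, 4.15, 6.9 and 18.8 CPM. EdgeR called 0 of the 17 tested, with 2 higher and 3 lower in FS cells at an unadjusted p under 0.05 (9.06% and 7.02% over all genes) and a median log2 fold change of 0.47. DESeq2 called Crabp2 as higher and Rara, Rarb and Dhrs3 as lower in FS cells, against 3.17% and 3.26% of all genes. Rarb had 0.0, 0.0046, 0.472 and 0.644 CPM in 5ar1, 5ar2, AFX6 and AF32, with 1 cell of each EpiSC line at 5 CPM. It passed the filter on low counts only through its EpiSC counts, so its direction was fixed by the filter. Aldh1a2, among the 2 higher in FS cells, passed the filter only through its FS counts.

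For signals and factors upstream of posterior identity, the largest number at 1 CPM or more was in AF32. Of 17 list genes 13 were measured, and 3, 4, 5 and 11 of them reached 1 CPM in 5ar1, 5ar2, AFX6 and AF32. Among the 11 in AF32, cells at 5 CPM or more ranged from 2 of 80 for T and Wnt3a to 42 for Fgf8. Fgf8 had 0.529, 7.5, 6.06 and 66.3 CPM, Fgf17 had 0.657, 0.814, 8.5 and 4.42 CPM, and Wnt3, which starts the primitive streak, had 6.4, 4.17, 17.8 and 14.1 CPM. T had 0.144, 0.179, 0.382 and 39.1 CPM, the last from 2 cells, and Tbx6, a paraxial mesoderm factor, had 0.343, 0.258, 0.878 and 5.28 CPM. EdgeR called 0 of 11 tested, with 0 higher and 5 lower in FS cells at an unadjusted p under 0.05 (9.06% and 7.02% over all genes), and the median log2 fold change was -3.15. DESeq2 called 6 of the 11 as lower in FS cells, against 3.26% of all genes, among them T, Tbx6, Fgf17, Wnt3 and Wnt8a. Wnt8a had 0.0, 0.0345, 0.262 and 3.21 CPM in 5ar1, 5ar2, AFX6 and AF32. It would not have passed the filter on low counts without its EpiSC counts, so its direction carries little weight. The 5 activating chromatin factors, Kmt2a, Kmt2b, Men1, Kdm6a and Kdm6b, had 13.8 to 147.0 CPM in every line, with 0 calls in edgeR or DESeq2 and 0 at an unadjusted p under 0.05. Of the ParaHox list, relatives of the Hox genes outside the clusters, only Gsx1 was measured, with 0.0667 CPM in 5ar2 and 0.0 in the other lines.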

How the data were processed

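Single cells of 2 FS cell lines (5ar1, 5ar2) and 2 EpiSC lines (AFX6, AF32) were sorted into plates and sequenced by Smart-seq2. The authors deposited raw counts per gene and cell, made with STAR 2.7.3a on GRCm38.p6 and featureCounts 2.0.0 per the submitters' processing notes. They also deposited a table of normalized values, an sctransform score in whole numbers, which has rows for 4 of the Hox genes described (Hoxa2, Hoxb1, Hoxb2, Hoxb3) and was used as an alternative only. Unique mapping and filtering on reads were not repeated.

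Cells with at least 3000000 counts were kept, and counts were summed per line. CPM is counts per 1000000 counts of the cell or line. Members were matched by Ensembl ID through GENCODE M21, in which 31565 of 31617 IDs matched, and 1 measured member is not reported here. FS cells and EpiSCs were compared with edgeR 4.0.16 in R 4.3.3 (TMM, filterByExpr, quasi-likelihood test, Benjamini-Hochberg adjustment). DESeq2 1.42.0 and limma 3.58.1 were alternatives. Intervals came from scipy 1.17.1 (exact Clopper-Pearson, Poisson and conditional binomial, 95%). Chromosome ratios rest on protein-coding genes that average 20 CPM or more, capped at 3 times the gene's mean. Values in every line are given for Hox genes with at least 1 CPM in a line or 5 CPM in at least 3 cells of a line. List genes were named at 5 CPM or more in a line with at least a 4-fold range between lines. Members and lists were chosen with earlier results of these data known. Alternatives were other cell thresholds, thinning to 1000000 counts, other values and totals, and leaving out cells or lines. The edgeR and DESeq2 p-values measure only the spread between these lines.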

Additional observations from a re-analysis of the deposited data

Results flagged for a closer look

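Cells under 3000000 counts were left out of all comparisons, and 4 of these 58 cells had more than 3 counts of a Hox gene, 3 of 16 in AF32, 1 of 6 in 5ar1, 0 of 6 in 5ar2 and 0 of 30 in AFX6. Cell 29 of AF32 had 1446467 counts and held the highest level of a single Hox gene in any cell, with 672.0 CPM of Hoxb1 (972 counts), 150.0 CPM of Hoxb3 and 63.6 CPM of Hoxb2, against 2.07 CPM for 3 counts. The same 3 neighbouring Hoxb genes were present in AF32 cell 35, and cell 29 had 5.53 CPM of Pou5f1 and 2.8 CPM of Nanog. The other values were 13.0 CPM of Hoxb3 in AF32 cell 20, 5.66 CPM of Hoxb2 in AF32 cell 13 and 4.34 CPM of Hoxd1 in 5ar1 cell 80, against 1.06 to 1.2 CPM for 3 counts.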

How the results depend on the processing

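The levels of single Hox genes rest on few cells, and at 3000000 counts per cell or more a count of 0 does not show absence. No paired analysis was possible because the labels give each cell a line and a number and do not link cells of different lines. Each line is 1 unit. The count of Hox genes at 1 CPM was 2 in AFX6 and 1 there with all cells, with thinned cells or with the authors' normalized values (4 Hox genes). In AF32 it was 1, and 2 with all cells and 0 with cells of at least 4000000 counts. In both EpiSC lines it was 0 at 5 CPM or without the top cell of each gene. The share of cells at 5 CPM was 0.0% in 5ar1 with cells of at least 4000000 counts, with normalized values or, as an alternative chosen after seeing the data, without the genes that share over 30% of exon bases with another gene. It was 0.0% in 5ar2 with normalized values. Other alternatives left the shares within their intervals, also the share of AF32. The summed Hox level of AFX6, 3.16 CPM, was 2.8 with all cells, 3.48 with at least 4000000 counts, 2.4 after thinning, 1.7 with normalized values, 0.76 without top cells, 2.6 as a mean over cells and 2.8 without the genes that share exon bases. That of AF32, 3.99 CPM, was 7.17, 2.98, 4.17, 3.28, 1.3, 4.41 and 3.34 in the same order. That of 5ar1, 0.497 CPM, was 0.00272 with at least 4000000 counts, 0.0 with normalized values, 0.00234 without top cells, 0.625 as a mean over cells and 0.0 without the genes that share exon bases. That of 5ar2, 0.34 CPM, was 0.166 with at least 4000000 counts, 0.00478 with normalized values and 0.0 without top cells. The order AF32, AFX6, then both FS lines held in these settings except with at least 4000000 counts, where AFX6 lay above AF32. With normalized values, and for 5ar1 without the genes that share exon bases, the place of FS lines followed from the members left. Of 9 folds between EpiSC lines, 7 were over 1 in favour of AF32, and 3 without top cells, where 5 had too few counts. Hoxb3 turned over to 0.764 with at least 4000000 counts. EdgeR called 0 genes in every setting it was run in, also with each line left out, limma called 0 in its single fit of all lines, and DESeq2 called 1454 genes and 2 Hox genes. The fitted log2 fold change of Hoxc6 was -4.05 and turned over to 6.8 without AFX6, and ranged from -10.71 to 6.8 over the lines left out. The causes were not tested, apart from the counts and cells that each setting leaves.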
